A study of Danio rerio with 3 samples.

Results

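The genes described here are 10 early regulators of the zebrafish embryo: cyp26a1, vox, vent, sall4, lin28aa, lin28ab, tbx16, tbx6, hesx1 and mespaa. They were chosen by name, from the gene symbols of the array's annotation, as genes whose expression peaks well before the stage sampled. Earlier results of these data were known when they were chosen. All 10 were on the array, out of 15548 named genes, through 17 oligonucleotide probes. Of the genes, 4 had 1 oligo, 5 had 2 and sall4 had 3.

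The tested embryos had each received 7.5 ng of a morpholino (MO) against slc2a10, which encodes the facilitative transporter GLUT10. The comparison embryos had received 5 ng of a control MO. Both were wild-type zebrafish, strain Ab, kept at 28 degrees C and homogenized whole at 48 hours post fertilization. The slc2a10 MO embryos were kept for analysis only if they showed a recognizable Class 1 phenotype, and each of 3 biological replicates pooled 10 to 15 embryos. Control RNA was combined into a single control MO pool, which was hybridised beside each slc2a10 MO replicate on 3 two-colour arrays, with the dyes exchanged on replicate 2. Thus dose, oligomer and selection by phenotype all differ between the groups, and the spread among control embryos was not measured.

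An MO is a modified oligomer that pairs with an RNA and hinders its splicing or translation, so it lowers gene function without altering the gene. The 2 oligomers are shown because they are the designed difference between the groups. They are written 5′ to 3′. The capitals in the first mark the complement of GTAAGT, the commonest start of a vertebrate intron, found by a search of the oligomer's own complement. The exon 2 splice donor is named as the target by the labels alone, since no gene sequence was searched.
slc2a10 MO: caaataaagtccACTTACttggt
control MO: cctcttacctcagttacaatttata

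In the gastrula, embryonic cells leave pluripotency while gradients of BMP, Nodal, Wnt, Fgf and retinoic acid give them positions along the body axes. Vox and vent are homeodomain repressors that keep organizer genes out of ventral cells, while tbx16 is a T-box factor that turns tailbud progenitors into mesoderm and tbx6 a T-box factor of the segmenting mesoderm. Cyp26a1 degrades retinoic acid, hesx1 represses transcription in the anterior neural plate, and sall4 and the Lin28 proteins are associated with undifferentiated cells. By the second day the body plan is laid down and most tissues are differentiating. Cyp26a1 has later domains of expression, including the eye, and Lin28 family members persist in some tissues.

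Each value below is a ratio of the 2 channels of an array, deposited on a log scale and read here as log2, a base inferred from its range. The sources used here do not say which channel is the numerator, so signs are anchored on slc2a10. A positive value lies on the slc2a10 side, a negative value on the opposite side. If Cy5 is the numerator, a gene on the opposite side was higher in the slc2a10 MO embryos. If Cy3 is the numerator, it was lower in them. The slc2a10 oligo read 0.50 on replicate 1, 0.42 on replicate 2 and 0.47 on replicate 3, and averaged 0.46 ± 0.040 (SD, n = 3 arrays, as for every mean below). This value does not check the labels, because blocking a splice site can leave transcript levels as they were. The sign of replicate 2 was turned, because its values ran against those of the other arrays, whose dyes were the other way round. With that sign as deposited, 0 genes passed in limma (28 at an unadjusted p under 0.05, none of the 10 among them). Spot brightness is not part of the values analysed here, so how far these early genes stood above background at 48 hours is unknown. In whole embryos, fewer cells of a type and less RNA per cell cannot be told apart.

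The mean differences of the early genes were below 1.5-fold. Of the 10, 3 passed limma's test at an adjusted p under 0.05: vox, cyp26a1 and sall4, all on the opposite side. The background is that 19.3% of all named genes passed in either direction, 8.16% on the opposite side and 11.1% on the other. The count of 3 was not tested against these shares, and 1 of the calls rested on a single oligo and another on replicates 2 and 3. None of the 10 passed on the slc2a10 side, and none did so there at an unadjusted p under 0.05 in limma. At that unadjusted limit 4 of the 10 were called, all with negative means. Among the 15548 named genes, 2706 reached it with a positive mean and 2174 with a negative one. The lack of positive calls among the 10 was not tested against that background. The means of 8 genes were below 0 and those of 2 above it, against 47.6% of all named genes below 0. Their median was -0.11, and 0.0066 over all genes. Regardless of sign, their median size was 0.11, against 0.082 over all genes. With the values read as log2, none reached 1.5-fold, and limma's 95% interval of each of the 10 lay inside 1.5-fold in both directions. Were they natural logs, 8 of the 10 intervals would, and those of vox and cyp26a1 would reach 1.73-fold. The intervals use limma's moderated variance, in which each gene's spread among the arrays is drawn towards that of all named genes. It rests on 2 residual and 6.05 prior degrees of freedom. The intervals do not hold error in the single control pool that the arrays share. Intervals from a gene's own 3 arrays alone were not computed. An ordinary t statistic, which uses only those arrays, called none of the 10 after adjustment. Of the genes, 5 had the same sign on every array, and 50.1% of all named genes did so.

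**Figure D1:**
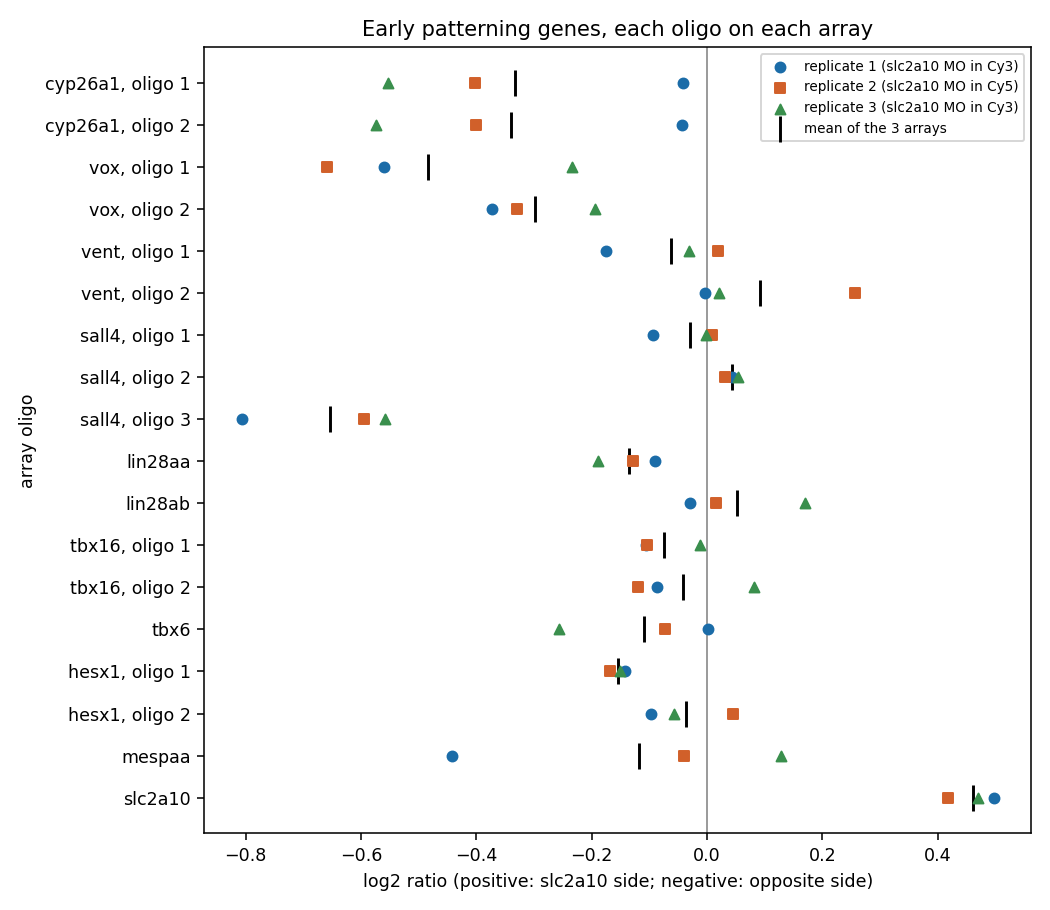
The log2 ratio of each oligo (rows) on each of the 3 arrays (symbols), with the mean as a bar; slc2a10 anchors the sign. Both cyp26a1 oligos and both vox oligos lie below 0 on every array, whereas only the third sall4 oligo departs from 0.

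Vox, the repressor of organizer genes in ventral cells, gave the largest difference of the 10. Its values were -0.47, -0.49 and -0.21 on replicates 1, 2 and 3. All arrays lay below 0, and replicate 3 was nearest to it. The mean was -0.39 ± 0.15, or 1.31-fold (95% interval -0.55 to -0.24, limma adjusted p = 0.00537). The first oligo averaged -0.48 ± 0.22 and the second -0.30 ± 0.094, and each passed when all oligos of the array were fitted singly (adjusted p = 0.00468 and 0.013), where 11.7% of all oligos passed. Leaving out any array kept the call, with means between -0.48 and -0.34.

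Vent acts alongside vox in ventral cells and is its neighbour among protein-coding genes in the RefSeq table. It did not pass. Its values were -0.090, 0.14 and -0.0057, on either side of 0. The gene's mean was 0.014 ± 0.12 (95% interval -0.12 to 0.15, limma adjusted p = 0.908), and it was -0.048 without replicate 2. That mean joins a first oligo at -0.063 ± 0.10 and a second at 0.091 ± 0.14. On each array vox lay below vent, by -0.38, -0.63 and -0.21 on the log2 scale, a mean difference of -0.41 ± 0.21. An exact two-sided sign-flip test over the arrays gave p = 0.25, the smallest that 3 arrays allow, and 0.375 after adjustment over the 3 pairs of genes compared. That test therefore cannot decide whether vox and vent differed. Ved, the third repressor of this kind, was at -0.061 ± 0.024.

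Cyp26a1, the enzyme that clears retinoic acid, lay on the opposite side and varied between arrays. Its values were -0.043, -0.40 and -0.56 on replicates 1, 2 and 3. Replicate 1 was near 0, and the others were not. The mean was -0.34 ± 0.27, or 1.26-fold (95% interval -0.55 to -0.12, limma adjusted p = 0.0368). Its 2 oligos differed by at most 0.021 on any array, while the gene ranged over 0.52 between arrays. The call was lost without replicate 2 (-0.30, adjusted p = 0.121) or without replicate 3 (-0.22, adjusted p = 0.136). Without replicate 1 the mean was -0.48 (adjusted p = 0.000925).

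Other genes of retinoic acid metabolism gave a mixed picture. Of 22 measured genes of the pathway, 5 passed with a positive mean and 3 with a negative mean, with a median of -0.0013. That is 36.4% of the list, against 19.3% of all named genes. Dhrs3b, a retinaldehyde reductase gene that limits retinoic acid synthesis, had -0.030, -0.41 and -0.55 on replicates 1, 2 and 3. These were close to the values of cyp26a1 on every array (mean -0.33 ± 0.27, limma adjusted p = 0.0408). Cyp26c1, a paralog of cyp26a1, had -0.19, -0.39 and -0.40, again with replicate 1 nearest to 0 (mean -0.33 ± 0.12, adjusted p = 0.00772). The retinoic acid binding protein gene crabp1b had a mean further from 0 on the opposite side and was more even. Its values were -0.44, -0.47 and -0.56 (mean -0.49 ± 0.065, limma adjusted p = 0.000734). Dhrs3a, the paralog of dhrs3b, did not pass, with 0.14, -0.041 and -0.14 on either side of 0 (mean -0.013 ± 0.15, adjusted p = 0.921). An order with replicate 1 nearest to 0 was not particular to the pathway. Outside it, and picked after their values were seen, cpa5 had -0.12, -0.36 and -0.49 and smad5 had -0.073, -0.29 and -0.33. Mpx ran the other way, with -0.84, -0.48 and -0.46. How common each order was among all named genes was not counted.

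On the slc2a10 side were stra6, the receptor gene for the plasma retinol carrier (0.54 ± 0.0086), and the retinoid X receptor genes rxrga (0.30 ± 0.24) and rxrgb (0.28 ± 0.13). Aldh1a2, which encodes the main embryonic enzyme of retinoic acid synthesis and was singled out after its values were seen, had 0.10, 0.19 and 0.34. All were above 0, with replicate 1 again nearest to it (mean 0.21 ± 0.12, limma adjusted p = 0.0442). The third degrading enzyme gene, cyp26b1, did not pass (0.14 ± 0.20, adjusted p = 0.259). Nor did aldh1a3 (0.12 ± 0.033) or rdh10b (-0.14 ± 0.19), while rarga passed (0.19 ± 0.055). Without replicate 2, 2 genes of the pathway passed in place of 8, and without replicate 3, 5 passed. Over all named genes 1556 and 2527 passed in those settings, in place of 2996.

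**Figure D2:**
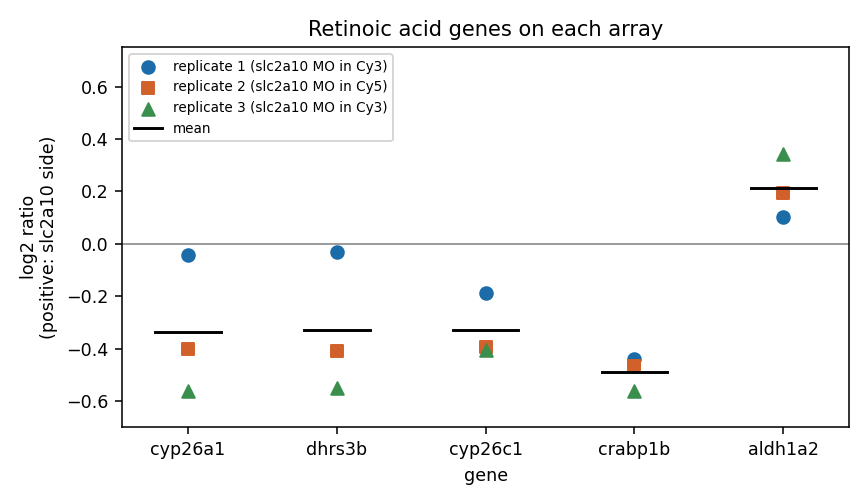
The log2 ratio of cyp26a1 and 4 other retinoic acid genes on each array, with the mean as a bar. Cyp26a1 and dhrs3b have nearly the same value on each array, near 0 on replicate 1 and -0.56 and -0.55 on replicate 3, while aldh1a2 lies above 0 on all 3. Genes outside the pathway, such as cpa5 and smad5, had a like order of arrays. The 4 were picked from 22 measured genes of the pathway, of which 5 passed with a positive mean and 3 with a negative mean. All 3 of the latter are shown, but only aldh1a2 of the 5. That is 36.4%, against 19.3% of all named genes.

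Sall4, a zinc finger factor of stem cells and limb and heart progenitors, passed the test through 1 of its 3 oligos. As an average its values were -0.29, -0.18 and -0.17, a mean of -0.21 ± 0.063 or 1.16-fold (limma adjusted p = 0.0264). The first oligo had -0.093, 0.0085 and -0.0019, and the second had 0.044, 0.032 and 0.053. Both stayed within 0.10 of no change on every array. The third had -0.81, -0.59 and -0.56, far from the others on every array. Its mean was -0.65 ± 0.13, or 1.57-fold (limma adjusted p = 0.000326 over all oligos). The third oligo is the only one of the 17 that the annotation ties to its gene with no RefSeq accession. With the median of the oligos the gene's mean was -0.029 (adjusted p = 0.784), and without the third oligo it was 0.0069 (adjusted p = 0.948). The call also ended without replicate 1 (adjusted p = 0.0638) or replicate 2 (adjusted p = 0.134). The part of the transcript that each oligo reads was not analysed here. None of the 5 sall paralogs measured passed: sall1a (-0.070 ± 0.084), sall1b (0.044 ± 0.071), sall2 (-0.097 ± 0.073), sall3a (0.030 ± 0.11) and sall3b (-0.12 ± 0.074).

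Among 26 other measured pluripotency and stem cell factors, 5 passed on the opposite side and 1 on the slc2a10 side, with a median of -0.077. That is 23.1% of the list, against 19.3% of all named genes. The opposite side held tcf7l1a, a repressor at Wnt target genes (-0.35 ± 0.14), and the SoxB1 genes sox19a (-0.27 ± 0.14) and sox3 (-0.20 ± 0.049), which act in early and neural progenitors. Myca was on the slc2a10 side (0.19 ± 0.047). Neither pou5f3 (0.022 ± 0.14) nor nanog (0.045 ± 0.11) passed. Of the 26 means, 16 were below 0 and 10 above it. The count of passing genes was 1 without replicate 2, and 3 without replicate 1 or without replicate 3. Over all named genes it was 1556 without replicate 2, 3211 without replicate 1 and 2527 without replicate 3, against 2996 with all arrays.

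The lin28 paralogs encode RNA-binding proteins that block maturation of let-7 microRNAs. Lin28aa had -0.091, -0.13 and -0.19, below 0 on every array. Its mean of -0.14 ± 0.049 reached an unadjusted p of 0.0317 but an adjusted p of 0.116 in limma. Lin28ab had -0.030, 0.015 and 0.17, on either side of 0, with a mean of 0.052 ± 0.10 (95% interval -0.083 to 0.19, adjusted p = 0.621). The difference between the paralogs averaged -0.19 ± 0.15 and was below 0 on each array. Its exact sign-flip p of 0.25 (0.375 adjusted) is the smallest that 3 arrays allow, so that test cannot decide. Of 13 measured genes around Lin28 and let-7, 2 passed on the opposite side and 1 on the slc2a10 side, or 23.1% against 19.3% of all named genes. Trim71, which encodes the zebrafish homolog of the worm let-7 target lin-41, had -0.54, -0.27 and -0.50. All arrays lay below 0 (mean -0.44 ± 0.15, limma adjusted p = 0.00309). The chromatin protein gene hmga1a had -0.36 ± 0.12, and msi2b, which encodes an RNA-binding protein of the Musashi family, had 0.32 ± 0.061. Hmga2 (-0.031 ± 0.13), igf2bp1 (-0.13 ± 0.12), igf2bp2a (-0.058 ± 0.043) and igf2bp3 (-0.078 ± 0.14) did not pass, nor did dicer1 or drosha. Of the 13 means, 10 were below 0 and 3 above it.

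The mesoderm regulators did not pass. Tbx16, needed for the movement of trunk mesoderm, had -0.096, -0.11 and 0.035. Its mean was -0.058 ± 0.081 (95% interval -0.19 to 0.070, limma adjusted p = 0.547), and its 2 oligos gave -0.074 and -0.041. Tbx6, also known as tbx24 and needed for somite boundaries, had 0.0013, -0.074 and -0.26, with replicate 3 apart from the others. Its mean was -0.11 ± 0.13 (95% interval -0.25 to 0.036, adjusted p = 0.289). Tbx16l, the paralog that carried the symbol tbx6 in older annotation, was at -0.055 ± 0.17. The difference between tbx16 and tbx6 averaged 0.052 ± 0.21 and changed sign between arrays (exact sign-flip p = 1).

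Mespaa, a helix-loop-helix factor of the forming somite and early mesoderm, had -0.44, -0.039 and 0.13. Its 3 arrays spread further than those of any other gene of the 10, with a mean of -0.12 ± 0.29 (95% interval -0.34 to 0.11, limma adjusted p = 0.481). Without replicate 1 the mean was 0.044. Mespba, its paralog and neighbour in the RefSeq table, was near 0 on every array (0.033 ± 0.027). Of 39 other measured genes of mesoderm, tailbud and somite segmentation, 6 passed on the opposite side and 2 on the slc2a10 side, with a median of -0.0086. That is 20.5% of the list, close to the 19.3% of all named genes that passed. The opposite side was led by snai1a, a repressor of epithelial genes (-0.93 ± 0.17), the endoderm and heart factor gene gata5 (-0.65 ± 0.050) and her12, a Notch-responsive repressor gene (-0.64 ± 0.45). Her12 had -0.96, -0.83 and -0.13, so replicate 3 was apart from the others. The adhesion gene pcdh8 (0.23 ± 0.058) and the Notch ligand gene dld (0.26 ± 0.082) were on the slc2a10 side.

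Hesx1, the repressor of the anterior neural plate and pituitary rudiment, did not pass. It had -0.12, -0.061 and -0.10, below 0 on each array, with a mean of -0.095 ± 0.030 (95% interval -0.21 to 0.023, limma adjusted p = 0.255). Its first oligo averaged -0.15 ± 0.013 and its second -0.036 ± 0.073. Other genes of the anterior neural plate, eye field and pituitary lay mostly on the slc2a10 side, with 22 means above 0 and 5 below. The median of the 27 measured was 0.15. Of them, 12 passed with a positive mean and 1 with a negative mean (48.1%, against 19.3% of all named genes). Those with a positive mean were led by the eye and forebrain homeobox genes six7 (0.67 ± 0.099), rx3 (0.65 ± 0.074) and otx2b (0.45 ± 0.082). Otx2a, a paralog of otx2b, was on the opposite side (-0.28 ± 0.038). Among pituitary genes gh1 passed (0.21 ± 0.094), while pou1f1, pomca, prl and tshba did not.

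Genes that pattern the dorsoventral axis with vox and vent mostly gave small values. Of 23 measured, 2 passed on the opposite side and 1 on the slc2a10 side, with a median of -0.011, and without replicate 2 only 1 passed. With all arrays the share was 13%, below the 19.3% of all named genes. Without replicate 2, 1556 named genes passed, against 2996 with all arrays. The BMP effector gene smad5 (-0.23 ± 0.14) and the ligand gene bmp7a (-0.19 ± 0.066) lay on the same side as vox. Neither the ligand genes bmp2b (0.15 ± 0.11) and bmp4 (-0.011 ± 0.063) nor the effector gene smad1 (-0.079 ± 0.13) passed. Gsc, a homeobox gene of the organizer that vox and vent repress in the gastrula, lay on the slc2a10 side, with 0.80, 0.36 and 0.45 (mean 0.54 ± 0.23, limma adjusted p = 0.00353). Of other organizer genes, chrd (0.019 ± 0.057), dharma (-0.067 ± 0.031) and dkk1b (-0.042 ± 0.14) did not pass. Noto, from the mesoderm list, did not pass either (-0.013 ± 0.050). The embryos were sampled after the gastrula and homogenized whole, so the tissue behind the gsc value is unknown. A link between gsc and vox was not tested.

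**Figure D3:**
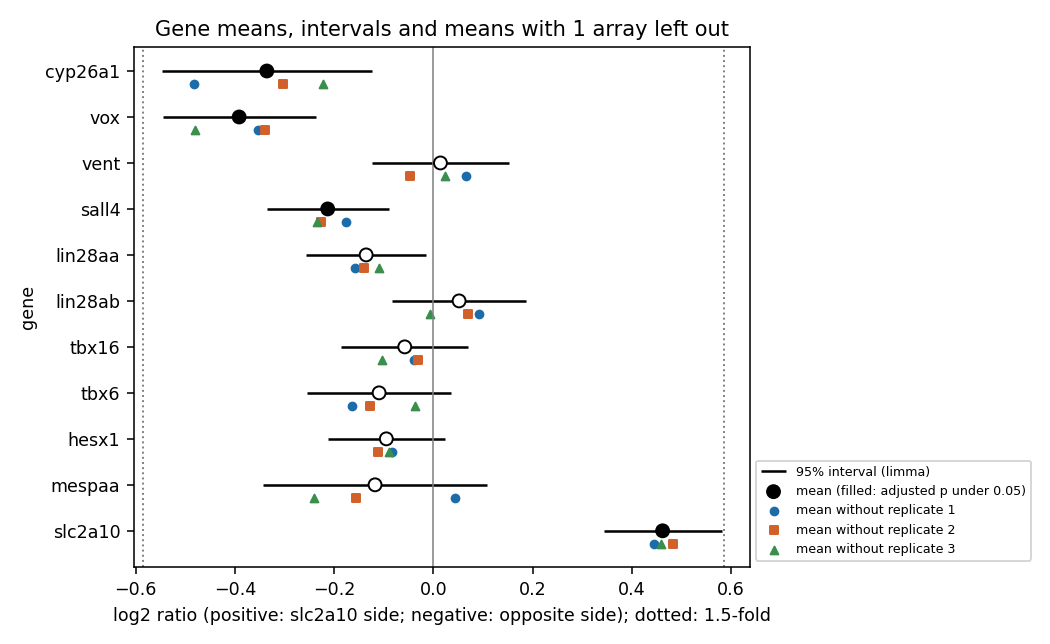
The mean log2 ratio of each gene with limma's 95% interval, and below it the means with 1 array left out; dotted lines mark 1.5-fold. Read as log2, the 10 early genes lie within 1.5-fold, and of these 10 only vox keeps its call whichever array is left out. Error in the shared control pool is not part of the intervals.

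Genes of replication, late differentiation and leukocytes lay further from 0, by list median, than the early genes on the same arrays. Among the related lists above, the anterior neural one did so too (0.15). The other related medians lay nearer 0 than that of the early genes, from -0.077 (pluripotency) to -0.0013 (retinoic acid). Of 31 genes of DNA replication and mitosis, 26 passed on the opposite side, the side of vox and cyp26a1, and 0 on the slc2a10 side (27 and 0 at an unadjusted p under 0.05 in limma). Their median was -0.45, led by lig1 (-0.72 ± 0.21), tyms (-0.68 ± 0.13) and mcm5 (-0.64 ± 0.098). Of 32 markers of late differentiation, 18 passed with a positive mean and 2 with a negative mean, with a median of 0.28. They were led by col10a1a of bone and cartilage (2.14 ± 0.23), crx of photoreceptors (1.99 ± 0.59) and fabp10a of liver (1.92 ± 0.13). Of the 32, 8 had means below 0, and the 2 that passed there were atp1b1b (-0.44 ± 0.15) and cpa5 (-0.32 ± 0.19). Of 13 leukocyte markers, 7 passed on the opposite side and 0 on the other (7 and 0 unadjusted), with a median of -0.21. Those that passed were led by mmp9 (-0.84 ± 0.43), lyz (-0.70 ± 0.27) and mpx (-0.59 ± 0.22). The others, ptprc, spi1b, cd74a, cd74b, csf1ra and the macrophage gene mpeg1.1, had means between -0.069 (ptprc) and 0.091 (mpeg1.1). Of the replication, late differentiation and leukocyte lists, 83.9%, 62.5% and 53.8% passed, against 19.3% of all named genes. The part of these shifts in the values of vox, cyp26a1 and sall4 was not tested. All these lists were written with earlier results of these arrays known, so their directions are descriptions.

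**Figure D4:**
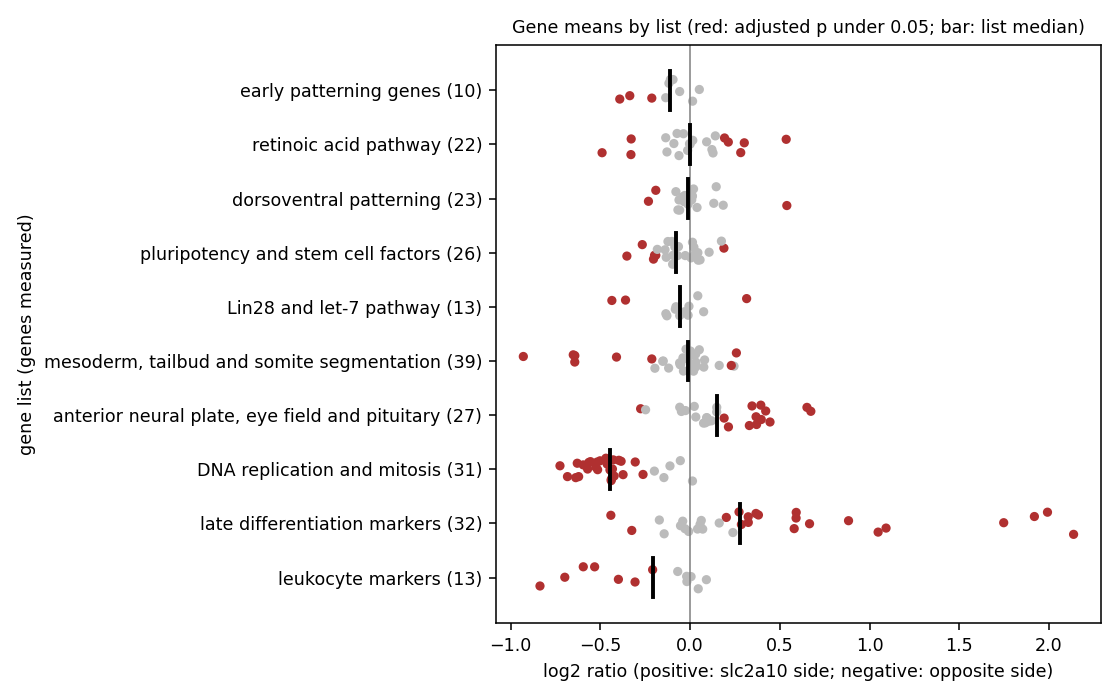
The mean log2 ratio of each measured gene, by list, with genes at an adjusted p under 0.05 in red and the list median as a bar. The early patterning genes, with a median of -0.11, stay nearer 0 than the replication genes at -0.45 and the late differentiation markers at 0.28. The medians of the retinoic acid, dorsoventral, pluripotency, Lin28 and mesoderm lists lie nearer 0 than that of the early genes.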

How the data were processed

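The deposited values are log ratios, read here as log2, 1 per feature and array. They were made by the authors and centred before deposit (array medians of -0.0016, -0.0076 and -0.0045). The log base is read from the largest size of 4.85, and a natural log is possible, which would understate log2 sizes. The submitters' processing notes name Partek. Scanning, background correction and normalization are, like the ratio's direction, not given in the sources used here.

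Over all 43648 features replicate 2 correlated at -0.65 and -0.69 with replicates 1 and 3, which correlated at 0.48, so the ratios were taken as running by dye and replicate 2 was turned. Values turned by sample before deposit, with a strong dye bias, would look alike, and this was not tested. After 45 control spots were left out, 43603 features were fitted singly and 15548 named genes as the mean of their oligos. Symbols came from GEO's platform annotation, updated by Entrez ID or accession from RefSeq's GRCz12tu gene table. That left the symbols of all 10 genes as they were.

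The mean of 3 arrays was tested against 0 with limma 3.58.1 in R 4.3.3 (lmFit, eBayes) with Benjamini-Hochberg adjustment over all named genes. The script was tested on simulated data. The control pool is 1 sample, and 3 arrays limit precision. The genes and lists were chosen with earlier results of these data known. From each list up to 3 passing genes of largest size per side are named. Paralogs of the 10 genes, and ved, chrd, dhrs3a, bmp2b, bmp4 and smad1, were added after their values were seen. So were pou5f3, nanog, dharma, dkk1b, noto, hmga2, igf2bp1, igf2bp2a, igf2bp3, dicer1, drosha, gh1, pou1f1, pomca, prl and tshba. The same holds for aldh1a3, rdh10b and rarga. Alternatives left out each array, or changed weights, dye term, scaling, centring, oligo summary, moderation and the sign of replicate 2.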

Additional observations from a re-analysis of the deposited data

How the results depend on the processing

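No paired analysis was possible because only the slc2a10 MO group has replicates, each set against the same pool. Leaving out 1 array gave 1556 to 3211 passing genes (981 to 1642 on the slc2a10 side, 575 to 1569 opposite) and 1 to 2 of the 10 early genes, against 2996, 1728, 1268 and 3. Replicate 2, which alone has slc2a10 MO in Cy5, gave the lowest of these counts when left out, with vox the gene that still passed. Array weights gave 5211 genes (2722 and 2489) and 4 early genes, the fourth being lin28aa (adjusted p = 0.0356). Restricting the fit to genes with 1 sign on all arrays, which by construction favours calls, gave 4780 (2648 and 2132). An ordinary t statistic gave 2 genes (1 and 1) and 0 early genes (3262 and 4 at an unadjusted p under 0.05). With replicate 2 as deposited there were 0 genes (0 and 0) and 0 early genes (28 and 0 unadjusted in limma). That setting also gave vent -0.078 and tbx16 0.017. The calls made with all 3 arrays therefore depend on the turn. Without replicate 2 the turn plays no part, and 1556 genes, vox among them, passed. Leaving out 1 array moved vent between -0.048 and 0.066, lin28ab between -0.0074 and 0.092, mespaa between -0.24 and 0.044, tbx6 between -0.16 and -0.036, and tbx16 between -0.10 and -0.031, none of them called. Without its oligo that has no accession, an alternative chosen after seeing the data, sall4 was 0.0069. With a dye term sall4 lost its call (-0.21, adjusted p = 0.0933), and pluripotency factors had 2 calls, against 6 and, with array weights, 10. The dye term left 1 dorsoventral gene, against 3, and 5 mesoderm genes, against 8, and array weights gave 5 Lin28 and let-7 genes, against 3. Counts over all named genes moved the same way, to 2221 (1252 and 969) with the dye term and 5211 with array weights, against 2996. The causes were not tested. Robust eBayes, scaling and centring changed no call among the 10.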
